A study of Homo sapiens with 8 samples.

Results

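Interleukin-1 (IL-1) genes were examined in sublines of 2 human esophageal squamous carcinoma lines, as a family of 8: the ligands IL1A, IL1B, IL18 and IL33, the receptor antagonist IL1RN, the signalling receptor IL1R1, the decoy receptor IL1R2 and the shared receptor subunit IL1RAP. Members were chosen by gene symbol and stand beside 19776 genes measured on the arrays, and the probe set that stands for a gene was selected on its mean over the 8 arrays, the measured value used in choosing. The 8 genes had 17 probe sets, and 6 of the genes had more than 1. In all, 5 members passed the filter on dim probe sets, a mean log2 value of at least 4.46, and 3 (IL1R1, IL1R2 and IL33) lay below it.

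KYSE180 and KYSE30 are established lines with epithelial morphology. Each was taken through 4 rounds of selection on a transwell, a porous membrane that moving cells cross. Cells of KYSE180 that crossed are called 180D and those that did not 180U, and the same fractions of KYSE30 are 30D and 30U. The groups hold 2 arrays each, from separately selected populations: a D subline and 1 U subline come from the same one of 4 parental populations, and RNA was taken 2 passages after harvest, so the cells were not sampled while crossing. No agent or genetic change is named in the labels, and neither unselected parental cells nor a normal epithelium was analysed here. The sublines are populations rather than clones, and a lower share of cells with a transcript and less of it per cell cannot be told apart in such bulk RNA.

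IL-1 alpha and IL-1 beta bind IL1R1, which recruits IL1RAP and, through the adaptor MYD88 and IRAK kinases, activates NF-kB and the transcription of chemokines and other inflammatory genes. The product of IL1RN occupies IL1R1 without recruiting IL1RAP, and IL1R2 binds ligand without signalling. IL-1 beta and IL-18 are matured by caspase-1 in inflammasomes, whereas IL-1 alpha and IL-33 act as alarm signals of damaged epithelium. In stratified epithelium IL-1 alpha and an intracellular form of the antagonist are known products of keratinocytes.

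IL1RN showed the largest change among the tested members, and alternative starts of this gene give the secreted and the intracellular forms of the antagonist. The bases before 2 of its starts in RefSeq are therefore shown, read 5′ to 3′ on the plus strand of GRCh38.p14, of 3 windows of 250 bases listed for it. Capitals mark letters found by a motif search: TGANTCA for AP-1 in the upstream window, and GAAANNGAAA for the interferon response and TATAAA for a TATA box in the downstream one.
IL1RN, chr2:113117721-113117970: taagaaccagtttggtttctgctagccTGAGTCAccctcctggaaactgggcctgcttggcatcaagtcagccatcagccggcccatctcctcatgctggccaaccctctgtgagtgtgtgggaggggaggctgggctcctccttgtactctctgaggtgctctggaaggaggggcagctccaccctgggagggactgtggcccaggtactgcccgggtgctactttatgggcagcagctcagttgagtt
IL1RN, chr2:113127348-113127597: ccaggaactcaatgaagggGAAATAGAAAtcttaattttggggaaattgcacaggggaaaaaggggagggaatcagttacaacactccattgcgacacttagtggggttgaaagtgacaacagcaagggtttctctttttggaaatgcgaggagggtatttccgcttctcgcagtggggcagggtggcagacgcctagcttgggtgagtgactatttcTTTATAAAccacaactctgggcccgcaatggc
The AP-1 match starts 223 bases before the upstream start. The interferon response match starts 231 bases before the downstream start, and 2 overlapping matches of TATAAA, 1 on each strand, lie with their leftmost base 32 and 30 bases before it. Both strands were searched, and among all 35116 listed windows of this length 6.57% hold the AP-1 letters, 3.02% the interferon response letters, 10.7% the TATA letters and 9.96% the NF-kB consensus. Of the 15 windows listed for 7 of the members, 3 held AP-1, 2 the interferon response (both at IL1RN, in windows that overlap), 4 TATA and 1, at IL1R2, NF-kB. These matches describe letters only, and the array probe sets do not tell which start was used.

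Arrays of the same group correlated more closely, with r of 0.997 to 0.998, than U with D arrays of a line, at 0.992 to 0.995, or arrays of different lines, at 0.86 to 0.869. The epithelial cadherin CDH1 averaged 11.70 in 180D, 11.72 in 180U, 11.83 in 30D and 11.67 in 30U, while the basal keratin KRT14 averaged 13.38 in 180D, 13.62 in 180U, 4.13 in 30D and 3.54 in 30U, below the filter value in KYSE30. The leukocyte gene PTPRC and the monocyte gene CD14 averaged below it in all groups, as did 5 of 9 measured immune markers in all, and the log2 of the summed level of the 9 was 7.45 to 7.52 in 180D, 7.37 to 7.44 in 180U, 7.51 to 7.57 in 30D and 7.52 to 7.61 in 30U. Of 6 fibroblast markers, 3 averaged below it in all groups, and the log2 of their summed level was 8.31 to 8.51 in 180D, 7.98 to 7.997 in 180U, 7.62 to 7.68 in 30D and 7.84 in both 30U arrays. Among them COL1A1 was higher in 180D (0.58 ± 0.11, adjusted p = 0.0350), with a change in KYSE180 minus that in KYSE30 of 0.97 ± 0.15 (adjusted p = 0.00938). Of 7 measured squamous markers, with a log2 summed level of 14.86 to 14.93 in 180D, 15.03 to 15.07 in 180U, 13.45 to 13.46 in 30D and 13.37 to 13.38 in 30U, LAMB3 was higher in 30D (0.76 ± 0.06, adjusted p = 0.000425), as IL1RN was. The part of these markers in the results on IL1RN and IL1RAP was not tested. Replicate 1 of 180D stood apart in its control probe sets, with a 3′ minus 5′ difference for ACTB of 1.92 against 1.06 to 1.42 on the others and 18S RNA at 11.79 against 12.88 to 13.01. IL1RN kept its difference between the lines' changes without that array (-1.83).

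**Figure D1:**
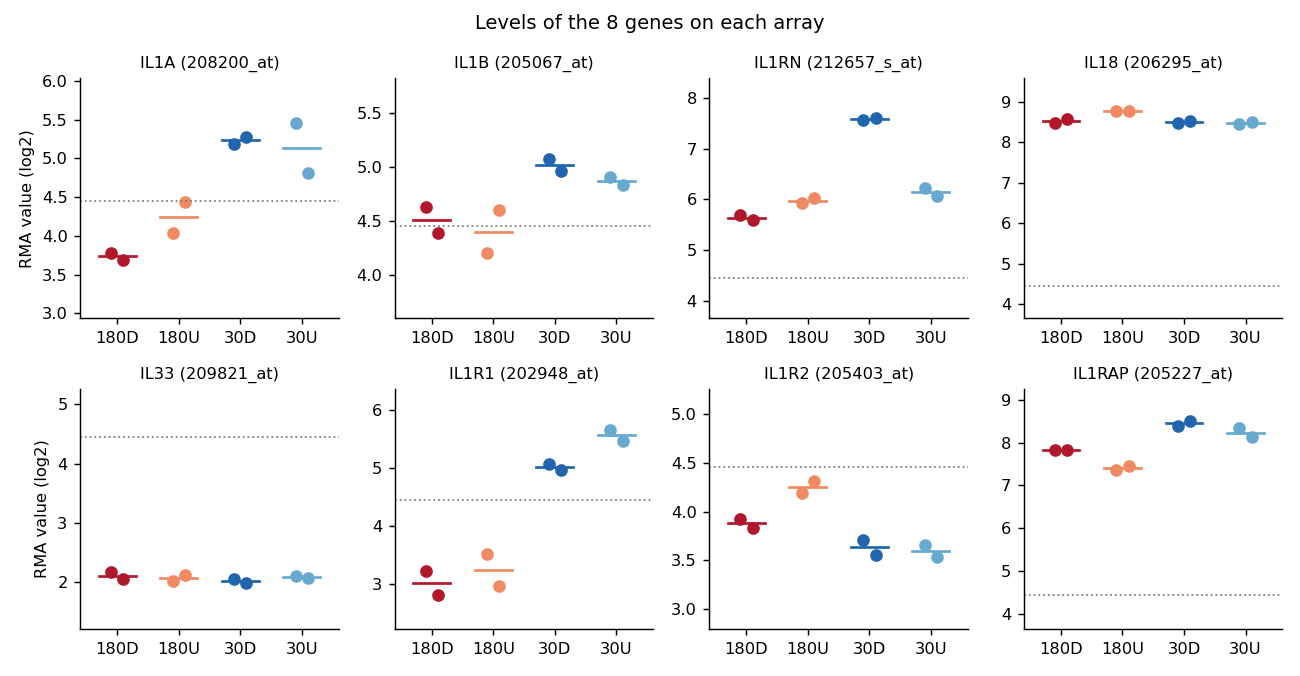
Log2 RMA value (y axis, with its own range in each panel) of the 8 genes on each array, with 2 points for each of 180D, 180U, 30D and 30U and a bar at the group mean; the dotted line is the filter value of 4.46. IL1RN stands highest in 30D, IL1A and IL1R1 lie below the line in KYSE180, and IL33 lies below it everywhere.

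IL1RN, the antagonist, was higher in 30D than in 30U by the probe set chosen, and was not higher in 180D than in 180U. Its probe set 212657_s_at read 5.69 and 5.59 in 180D, against 5.94 and 6.02 in 180U. In KYSE30 it read 7.57 and 7.60 in 30D, against 6.23 and 6.06 in 30U. The groups overlap in neither line, and the 2 arrays of 30D are the highest of the 8. IL1RN rose by 1.44 ± 0.07 in 30D (log2, SE, 2 arrays per group), or 2.72-fold, with an adjusted p of 8.90e-05 in limma over 14180 genes. In 180D it changed by -0.34 ± 0.07, which missed the threshold of 0.05 (adjusted p = 0.0550). The change in KYSE180 minus that in KYSE30 was -1.78 ± 0.10 with a 95% interval of -2.03 to -1.54 (adjusted p = 0.000172). The mean of the gene's probe sets past the filter gave 0.86 in 30D and a difference of -0.95. That mean includes 216243_s_at, which passed the filter through 30D alone, so it is given without a test. By parental population, D minus U of the probe set chosen was -0.35 and -0.33 in populations 3 and 4 of KYSE180 and 1.34 and 1.54 in populations 1 and 2 of KYSE30. The change of IL1RN in KYSE30 was already known when the family was chosen, so it gives no independent support.

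**Figure D2:**
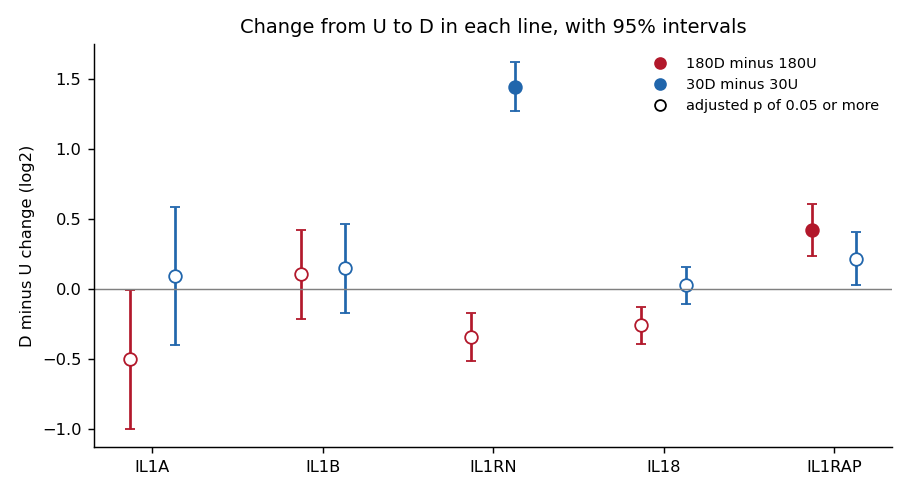
Change from U to D (log2, y axis) of the 5 members past the filter, as points with 95% intervals for 180D minus 180U and 30D minus 30U. Filled points passed an adjusted p of 0.05 and open ones did not: IL1RN in KYSE30, at 1.44, and IL1RAP in KYSE180, at 0.42, are filled. Both KYSE180 groups of IL1A lie below the filter value, so its point there cannot be read as a change.

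Across the 5 members tested in KYSE30, 1 was higher (IL1RN) and none was lower in 30D, beside 8.42% of all tested genes higher and 8.12% lower. In KYSE180, 1 was higher (IL1RAP) and none was lower in 180D, beside 2.55% of all genes higher and 1.21% lower. For the difference between the changes 1 of 5 passed (IL1RN), beside 12.2% of all genes. The medians of the members were -0.26 in KYSE180 and 0.15 in KYSE30, against 0.02 and 0.01 over all tested genes. Counts of 1 among 5 are too small to be set apart from these shares.

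Of the ligands, none passed the threshold between D and U by the probe set chosen. IL1A encodes the alarm cytokine IL-1 alpha. It read 3.78 and 3.69 in 180D, against 4.03 and 4.44 in 180U, and 5.18 and 5.28 in 30D, against 5.46 and 4.81 in 30U. Both KYSE180 groups lie below the filter value, so no fold is given there, and the 30U arrays spanned those of 30D. The difference in KYSE30 was 0.09 ± 0.21 (adjusted p = 0.817, 95% interval -0.40 to 0.59), and none is given for KYSE180. A second probe set of IL1A, described with the probe sets below, gave a smaller spread and a call in 30D, with the limit given there.

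IL1B, whose product IL-1 beta needs processing, read 4.63 and 4.39 in 180D, against 4.21 and 4.60 in 180U. In KYSE30 it read 5.07 and 4.96 in 30D, against 4.91 and 4.83 in 30U. The groups overlap in KYSE180 and lie close without overlapping in KYSE30. IL1B gave 0.11 ± 0.13 in KYSE180 (adjusted p = 0.725) and 0.15 ± 0.13 in KYSE30 (adjusted p = 0.513). Its 180U mean of 4.40 lay below the filter value, which limits the change in KYSE180. The interval of the change in KYSE30 ran from -0.17 to 0.46.

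IL18, the other caspase-1 substrate, stood high on every array, at 8.47 and 8.56 in 180D, against 8.78 and 8.77 in 180U, and at 8.48 and 8.52 in 30D, against 8.45 and 8.50 in 30U. Both 180U arrays lie above all the others, and the KYSE30 groups overlap. The change was -0.26 ± 0.06 in KYSE180 (adjusted p = 0.0550) and 0.03 ± 0.06 in KYSE30 (adjusted p = 0.784). The difference between these changes, -0.29 ± 0.08, also missed the threshold (adjusted p = 0.0589), which it passed without replicate 2 of 180D (-0.33, adjusted p = 0.0445). The alarm cytokine IL33 stood at 2.17 and 2.06 in 180D, 2.02 and 2.13 in 180U, 2.05 and 1.98 in 30D, and 2.11 and 2.07 in 30U. All of these lie below the filter value, so no change of IL33 could be read.

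IL1RAP, the receptor subunit that IL-1, IL-33 and IL-36 receptors share, was higher in 180D by the probe set chosen, in a call that several alternatives lost. It read 7.83 and 7.84 in 180D, against 7.37 and 7.46 in 180U, and 8.40 and 8.50 in 30D, against 8.33 and 8.13 in 30U. No groups overlap within a line. The change was 0.42 ± 0.08 in KYSE180 (1.34-fold, adjusted p = 0.0366) and 0.22 ± 0.08 in KYSE30 (adjusted p = 0.113), and their difference of 0.20 ± 0.11 did not pass (adjusted p = 0.291). The call in KYSE180 was lost with no filter (adjusted p = 0.0663), with the replicate block by parental population (0.112) and with arrays centred on their median (0.0559). It was also lost with only the KYSE180 arrays (0.0707). Leaving out 1 array at a time gave changes of 0.38 to 0.47. The call was lost without each KYSE180 array in turn and without either array of 30D. The mean of both its probe sets gave 0.30 in KYSE180 (adjusted p = 0.0962) and 0.30 in KYSE30, where it passed (adjusted p = 0.0382), with a difference between the changes of -0.0030.

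IL1R1, the signalling receptor, had its probe sets below the filter when averaged over all arrays and was fitted without it. It read 3.23 and 2.82 in 180D, against 3.53 and 2.97 in 180U, and 5.08 and 4.97 in 30D, against 5.66 and 5.48 in 30U. Both 30D arrays lie below both 30U arrays, but the change of -0.54 ± 0.20 had an adjusted p of 0.159 in the fit without the filter. The decoy IL1R2 read 3.93 and 3.84 in 180D, against 4.19 and 4.32 in 180U, and 3.71 and 3.56 in 30D, against 3.66 and 3.54 in 30U, below the filter value on every array.

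Of 5 members tested, 1 was higher and 4 were lower in KYSE180 than in KYSE30, beside 38.7% of all genes higher and 32.7% lower, so a call was common among all genes. IL1RN was lower by -1.06 ± 0.05 (adjusted p = 8.43e-07, 4 arrays per line). Its means were 5.64 in 180D against 7.59 in 30D, but 5.98 in 180U against 6.14 in 30U. The difference thus lay mostly in the D sublines. An additive fit of line and fraction gave it an SE of 0.32 (adjusted p = 0.0165), and its probe set 212659_s_at gave -0.25 ± 0.09. IL1RAP was lower by -0.72 ± 0.06 (adjusted p = 1.21e-05). IL1A is counted among the 4 lower, but it passed the filter through KYSE30 alone. As its KYSE180 mean lay below the filter value, it is given as at least 1.66-fold lower there, without a test. IL1B is also counted among the 4 lower. Its mean was 4.45 in KYSE180, just below the filter value, and 4.94 in KYSE30. It is therefore given as at least 1.40-fold lower in KYSE180, without a test. IL18 was higher by 0.16 ± 0.04 (adjusted p = 0.00859), a call that an additive fit of line and fraction did not make (adjusted p = 0.0692). IL1R1 was at least 1.79-fold lower in KYSE180, beside 25.1% of genes lower in the fit without the filter. This too is given without a test, as its KYSE180 mean of 3.14 lay below the filter value. The other probe set of IL1R1, 215561_s_at, lay below that value in all groups.

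Probe sets of one gene did not always agree. IL1A's second probe set, 210118_s_at, read 3.55 and 3.21 in 180D, against 3.95 and 3.88 in 180U, and 5.64 and 5.83 in 30D, against 5.13 and 5.24 in 30U. In a fit of every probe set on its own it rose by 0.55 ± 0.12 in 30D (adjusted p = 0.0287), beside 5.86% of probe sets higher there. Both its KYSE180 groups average below the filter value, so no change in KYSE180 and no difference between the changes is given. So the probe set chosen by the higher mean called no change of IL1A within KYSE30, and the other did.

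IL1RN had 2 other probe sets past the filter. For 212659_s_at the change was 0.06 ± 0.12 in 180D (adjusted p = 0.843) and 0.30 ± 0.12 in 30D (adjusted p = 0.165), and the difference between these changes, -0.24 ± 0.17, did not pass (adjusted p = 0.440). The other, 216243_s_at, passed the filter through 30D alone, where it averaged 5.13, against 4.28 in 30U, 4.28 in 180D and 4.27 in 180U. As 30U lies below the filter value it is given as at least 1.59-fold higher in 30D, without a test, and no change in KYSE180 could be read. The remaining 2 probe sets of IL1RN lay below the filter. IL1RAP's second probe set, 210233_at, changed by 0.18 ± 0.13 in KYSE180 (adjusted p = 0.522) and by 0.39 ± 0.13 in KYSE30 (adjusted p = 0.0955). Between the lines it was higher in KYSE180 by 1.07 ± 0.09, beside 35.9% of probe sets higher, against -0.72 for the probe set used. The direction of IL1RAP between the lines therefore depends on the probe set, and the mean of its probe sets gave 0.18.

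**Figure D3:**
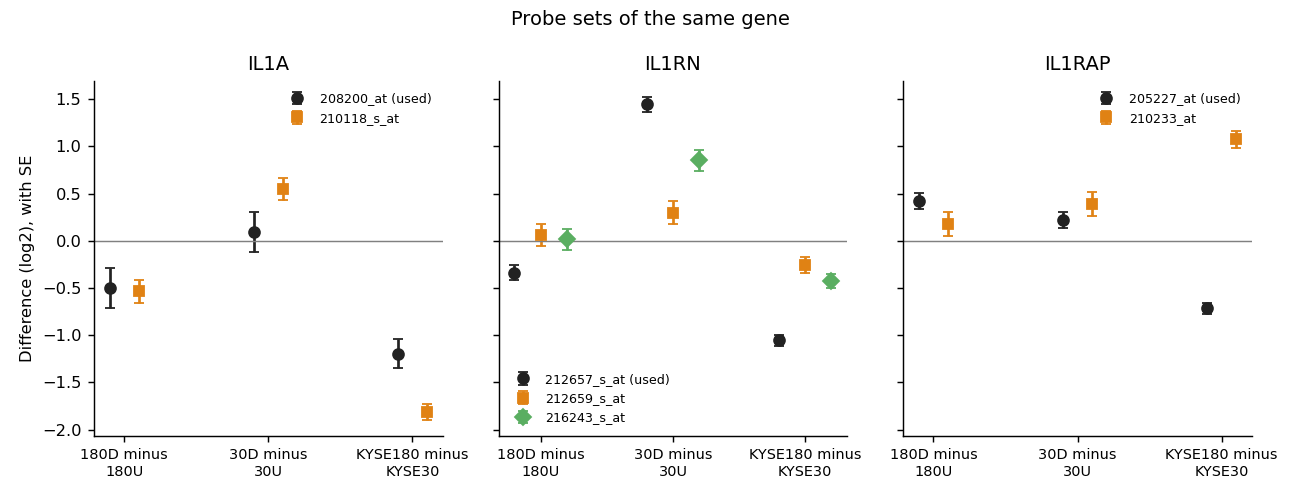
Difference (log2, y axis) with its SE for every probe set past the filter of IL1A, IL1RN and IL1RAP, in 180D minus 180U, 30D minus 30U and KYSE180 minus KYSE30. The 2 IL1RAP probe sets lie on opposite sides of 0 between the lines (-0.72 and 1.07), and the 3 of IL1RN lie above 0 in 30D. For both probe sets of IL1A in KYSE180, and for 216243_s_at in all groups but 30D, the levels lie below the filter value.

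Other genes of the pathway were read from 4 lists of 76 genes, chosen with earlier results of these data known, of which 48 were tested, 20 lay below the filter and 8 had no probe set with 1 symbol. In KYSE180, 4 were higher and 1 lower in 180D, beside 2.55% and 1.21% of all tested genes, with a median of 0.03 against 0.02. In KYSE30, 11 were higher and 9 lower in 30D, beside 8.42% and 8.12%, with a median of 0.06 against 0.01. For the difference between the changes 8 passed above 0 and 5 below, beside 12.2% of all genes in both directions together. Between the lines 19 were higher and 16 lower in KYSE180, beside 38.7% and 32.7%.

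Among 7 other ligands, receptors and decoys tested, 1 was higher and 1 lower in 30D (8.42% and 8.12% of all genes) and none passed in 180D (3.75% of all genes). IL1RL1, the receptor for IL-33, rose by 0.43 ± 0.12 in 30D (adjusted p = 0.0455), and SIGIRR, an inhibitory receptor, fell by 0.24 on the log2 scale (adjusted p = 0.0173). With the replicate block the adjusted p was 0.0696 for IL1RL1 and 0.0545 for SIGIRR, and both calls were lost without each of the 4 KYSE30 arrays in turn (0.106 to 0.203 for IL1RL1 and 0.0886 to 0.113 for SIGIRR) and, for IL1RL1, without either array of 180U (0.0730). IL36RN, the antagonist of IL-36, was at least 1.92-fold lower in KYSE180 than in KYSE30.

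Of 12 genes of processing and release, 4 were higher and 2 lower in 30D (8.42% and 8.12% of all genes), and 3 were higher in 180D (2.55%). CASP1, which matures IL-1 beta and IL-18, read 6.90 and 6.86 in 180D, against 7.28 and 7.05 in 180U, and 6.35 and 6.38 in 30D, against 5.50 and 5.61 in 30U. It rose by 0.82 ± 0.08 in 30D (adjusted p = 0.00139), and its change in KYSE180 minus that in KYSE30 was -1.10 ± 0.12 (adjusted p = 0.00220). Its probe set is of a kind marked as open to cross-hybridisation, and CARD16 is a near-identical neighbour, so the level of CASP1 is uncertain to that extent. CARD16 is among the 4 higher in 30D, but both KYSE30 groups lie below the filter value. PYCARD, the inflammasome adaptor ASC, was higher in both lines, by 0.50 ± 0.06 in 180D (adjusted p = 0.00574) and 0.52 ± 0.06 in 30D (adjusted p = 0.00221). GSDME, a pore-forming gasdermin, rose by 0.52 ± 0.07 in 180D (adjusted p = 0.0123), a call lost without replicate 1 of 180D (0.0839) and without replicate 1 of 180U (0.0685), and by 0.34 ± 0.07 in 30D (adjusted p = 0.0201). NINJ1, which acts in membrane rupture, was 0.32 in 180D (adjusted p = 0.0256) and -0.24 in 30D (adjusted p = 0.0235). Its call in 180D was lost with the replicate block (0.0848), and without every array but replicate 2 of 180D (0.0626 to 0.0952). The inflammasome sensor CARD8 was -0.36 in 30D (adjusted p = 0.0205) but 0.29 as the mean of its probe sets, and its call was lost without replicate 1 or 2 of 30U (0.0647 and 0.125) and without replicate 1 of 30D (0.123).

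Of 15 genes of receptor signalling, 2 were higher and 3 lower in 30D (8.42% and 8.12% of all genes) and none passed in 180D (3.75%). MYD88, the adaptor of IL-1 receptors, rose by 0.34 ± 0.06 in 30D (adjusted p = 0.00810), a call lost without each of the 4 KYSE30 arrays in turn (0.0520 to 0.0616). TAB2, a partner of the kinase TAK1, fell by 0.42 on the log2 scale (adjusted p = 0.00573), and TOLLIP, an adaptor of this receptor complex, rose by 0.32 ± 0.07 (adjusted p = 0.0244), lost without replicate 2 of 30U (0.147) and without replicate 1 or 2 of 30D (0.146 and 0.0686). TAB3, a relative of TAB2, was -0.25 ± 0.06 in 30D (adjusted p = 0.0251). PELI2, a Pellino ubiquitin ligase, passed too, but with both KYSE30 groups below the filter value. It was at least 20.4-fold higher in KYSE180, and IKBKB, a kinase that activates NF-kB, was -1.54 ± 0.06 there.

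Of 14 epithelial targets of IL-1, 4 were higher and 3 lower in 30D (8.42% and 8.12% of all genes), and 1 was higher and 1 lower in 180D (2.55% and 1.21%). CXCL8, the neutrophil chemokine, read 7.05 and 7.26 in 180D, against 6.31 and 6.21 in 180U, and 5.56 and 5.45 in 30D, against 4.66 and 4.92 in 30U. All D arrays lie above the U arrays of their line. CXCL8 rose by 0.90 ± 0.11 in 180D (adjusted p = 0.00590) and by 0.71 ± 0.11 in 30D (adjusted p = 0.00606). The call in 180D was lost without replicate 2 of 180U, where the change was 0.85. Over the alternatives the change ran from 0.74 to 1.00 in 180D and from 0.48 to 0.84 in 30D. The probe set of CXCL8, like that of CASP1, is of a kind marked as open to cross-hybridisation. IER3, an immediate early gene, rose by 0.52 ± 0.05 in 30D (adjusted p = 0.000995) and the cytokine IL32 by 0.58 ± 0.08 (adjusted p = 0.00448). The mitochondrial dismutase SOD2 fell by 0.44 on the log2 scale in 30D (adjusted p = 0.00812), lost without replicate 1 of 30U (0.0562) and without replicate 2 of 30D (0.0585). The protease MMP9 was 0.26 in 30D, NFKBIA, the inhibitor of NF-kB, -0.28 and the iron-binding LCN2 -0.31. All passed the threshold, but these calls were not followed through the alternatives. In 180D IER3 was -0.23 ± 0.05 (adjusted p = 0.0464), a call lost with the replicate block (0.132) and without every array in turn (0.0830 to 0.132). CXCL1, another neutrophil chemokine, was at least 19.4-fold higher in KYSE180 than in KYSE30.

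Between the changes in the lines, 13 pathway genes differed, with the change in KYSE180 minus that in KYSE30 given here. CASP1 and IER3 (-0.75 ± 0.07, adjusted p = 0.00116) lay below 0, as did TOLLIP (-0.51) and IL32 (-0.59). CARD8 (0.72), NINJ1 (0.56), NFKBIA (0.54), TAB2 (0.47), SIGIRR (0.46), TAB3 (0.42) and LCN2 (0.38) lay above it. CARD16 and PELI2 are counted among the 13, but with both KYSE30 groups below the filter value no difference is given for them. With the replicate block IL32 (adjusted p = 0.0620), TAB2 (0.0519) and LCN2 (0.0740) lost the call. Leaving out arrays 1 at a time took the adjusted p over 0.05 for IL32 (at most 0.0678), TOLLIP (0.0791), TAB2 (0.0752), TAB3 (0.0773) and LCN2 (0.132), and CARD8 and TAB3 gave -0.081 and 0.11 as the mean of their probe sets.

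Between the lines, KYSE180 was higher than KYSE30 in CXCL8 (1.56 ± 0.08), the ubiquitin ligase PELI1 (1.25), CASP1 (1.06) and CARD18 (0.86), a relative of the caspase-1 prodomain. CARD16 was at least 4.07-fold and the chemokine CXCL2 at least 1.45-fold higher in KYSE180. The probe sets of CXCL8, CASP1 and CXCL2 are of the kind open to cross-hybridisation. TAB3 (-1.44), the initiator caspase CASP8 (-0.79), TNFAIP2 (-0.76), SIGIRR (-0.63) and IL1RL1 (-0.44) were lower in KYSE180.

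**Figure D4:**
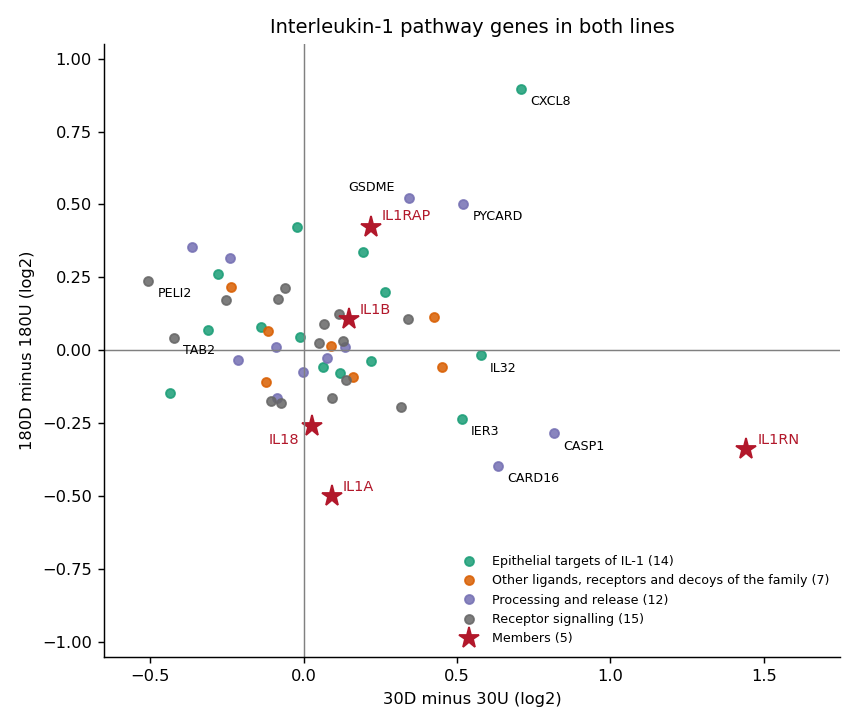
Change in 180D minus 180U (y axis, log2) against 30D minus 30U (x axis, log2) for the 48 tested pathway genes (dots, coloured by list) and the 5 members (stars). CXCL8 and PYCARD lie above 0 on both axes, while IL1RN, CASP1 and IER3 lie right of 0 and below it.

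The genes whose level over the 8 arrays ran most like a member's were ranked by the root mean square difference after each gene was centred on its own mean, over all tested genes. The nearest to IL1RN were IFI44 at 0.14, MGLL at 0.20 and FYN at 0.26, with r of 0.98, 0.97 and 0.98 over the 8 arrays. The nearest to IL1A were CTC1, FUT4 and CGAS, between 0.16 and 0.17, and to IL1B CAPN5, PRKCZ and DCTD, between 0.05 and 0.07. KIF20A, SMAGP and XPA ran nearest to IL1RAP, and TMEM14A, WDR41 and CDK13 to IL18. These arrays share 2 lines and 4 parental populations, so each likeness describes 4 groups and says nothing of shared function or control.

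IL1RN lies in the ligand cluster of chromosome 2, where 10 of 15 genes taken from its surroundings were tested. In 30D only IL1RN and SLC20A1, a phosphate transporter (0.35 ± 0.05, adjusted p = 0.00619), passed, both higher, beside 8.42% of all tested genes higher and 8.12% lower. The genes beside IL1RN, IL1F10 and PSD4, gave 0.16 (adjusted p = 0.132) and 0.02 (adjusted p = 0.898) there, and IL36RN, beyond IL1F10, gave 0.45 (adjusted p = 0.116). In the receptor cluster of that chromosome 3 of 8 genes were tested, and IL1RL1 alone passed in 30D. Counts in either cluster are too small to be set apart from the shares over all genes.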

How the data were processed

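RNA of 8 subline cultures was hybridised to Affymetrix human arrays. The deposited values are log2 values made by the authors with RMA, per the submitters' processing notes; no source used here gives its version. RMA makes array distributions alike and compresses dim signals, so folds of dim genes are understated. Probe sets with 1 symbol were named through the platform annotation, updated by Entrez ID to RefSeq GRCh38.p14, and each gene was represented by the one with the highest mean. Those under the 40th percentile were left out. Tests used limma 3.58.1 in R 4.3.3 on the 4 group means, two-sided, with Benjamini-Hochberg adjustment over 14180 genes; the fits were tested on simulated data. Where 1 of 2 group means lay below the filter value, the fold was measured from that value. The members and lists were chosen with earlier results of these data known. Up to 4 genes per list and comparison with the largest changes past the threshold were named. GSDME, NINJ1, TAB3, MMP9, NFKBIA and LCN2 in 30D, COL1A1, LAMB3, SLC20A1, IL1F10, PSD4 and, in 30D, IL36RN lie outside that rule and are named after their values were seen. These values were not followed through the alternatives listed below. Same-numbered arrays were not taken as pairs: the description pairs sublines by parental population, with KYSE180 numbers crossed, and deviations of sublines of 1 population from their group means correlated at -0.02 in KYSE30 and 0.02 in KYSE180. The number of arrays limits the precision. Alternatives covered the filter, the probe set rule, the replicate block, the trend in eBayes, single-line fits, array centring and leaving out each array.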

Additional observations from a re-analysis of the deposited data

Results flagged for a closer look

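IL1RN moved differently in the lines, by a direct test of the difference: for the probe set chosen, the change in KYSE180 minus that in KYSE30 was -1.78 ± 0.10 (log2, limma, adjusted p = 0.000172). D minus U of that probe set was negative in both KYSE180 populations and positive in both KYSE30 populations. The mean of the probe sets of IL1RN past the filter gave -0.95. This mean is given without a test, as it includes a probe set that passed the filter through 30D alone. The probe set 212659_s_at alone gave -0.24 (adjusted p = 0.440), with D minus U positive in population 3 of KYSE180 (0.22).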

How the results depend on the processing

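With the parental population as replicate block, IL1RN in 30D kept 1.44 (adjusted p = 0.00222) and its difference between the lines kept -1.78 (adjusted p = 0.00348), while the number of genes called was 230 in KYSE180, against 532, and 1011 for the difference between the changes, against 1723. The other changed counts were, in KYSE180, 311 with no filter, 1069 with the intensity trend and 195 with only the arrays of the line, and, for the difference, 1142 with no filter and 2700 with the trend. Leaving out 1 array at a time gave 834 to 2553 genes in KYSE30, 209 to 502 in KYSE180 and 727 to 1702 for the difference. Of the members, the mean of all probe sets called 2 in KYSE30 (IL1RN and IL1RAP) and 2 for the difference (IL1RN and IL1A, whose KYSE180 groups lie below the filter value), and in KYSE180 0. KYSE180 also had 0 with no filter, with the block and with only its own arrays, 3 with the 60th percentile filter and with the trend, and 2 with centring. The 60th percentile filter and the trend each called 2 members for the difference, and that filter called 3 between the lines, as IL1A and IL1B were not tested there. Leaving out arrays gave 0 to 1 members in KYSE180 and 1 to 2 for the difference. With the mean of all probe sets, IL1RN gave 0.86 in 30D and -0.95 for the difference. These are counted above but given without a test, as 216243_s_at passed the filter through 30D alone. With that mean, CARD8 in 30D turned to 0.29 and its difference between the changes to -0.081, and IL1RAP between the lines to 0.18. Centring changed the split of genes in KYSE180 to 269 higher and 236 lower, against 361 and 171. IL1RN and IL18 in KYSE180 passed with the 60th percentile filter (adjusted p = 0.0291 and 0.0281), the trend (0.0463 and 0.0151) and centring (0.0368 and 0.0463). No cause of these shifts was tested, and levels near the filter value limit IL1A, IL1B and IL1R1.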
